A study of Mus musculus with 10 samples.

Results

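The insulin-like growth factor (IGF) binding proteins and the receptor Igf1r were followed across 5 sorted populations of the mouse mammary gland. Members were all probe sets whose annotated gene symbol was Igf1r alone, or Igfbp and a digit alone. They numbered 11 of the 3663 probe sets in the deposited table and gave 5 genes of the 2932 features tested, namely Igfbp2, Igfbp3, Igfbp4, Igfbp7 and Igf1r. Igfbp4 was read by 5 probe sets, Igfbp3 and Igf1r by 2 each, and Igfbp2 and Igfbp7 by 1 each.

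The cells came from untreated virgin female FVB mice 6 to 8 weeks old, and 10 Affymetrix mouse arrays were hybridised, 2 for each population. After staining for CD45, CD31 and Ter119, which mark blood and endothelial cells, cells were sorted on CD24, CD49f (integrin alpha 6) and Thy-1 into CD24medCD49fmed, which the series names myoepithelial, Thy-1+CD24medCD49fhigh, named stem cells, Thy-1-CD24medCD49fhigh, named progenitors, CD24highCD49fmed, named luminal progenitors, and CD24medCD49f-/low, named differentiated luminal cells. The first 3 are called basal here and the other 2 luminal. No source used here gives the number of mice behind an array or says that replicates came from separate animals, so each p-value reflects the scatter of these arrays alone, which may be technical.

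IGF1 and IGF2 are secreted growth factors that signal through Igf1r, a receptor tyrosine kinase, and in the mammary gland they act on ductal growth and on the survival of epithelial cells. The binding proteins hold the IGFs with high affinity outside the cell and so set how much ligand reaches the receptor, and proteases release the ligand again by cutting them. Igfbp7 is a relative with low affinity for IGFs that is found in vessel walls and basement membranes.

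Each value below is a normalised log2 intensity that the authors had centred on the mean of the 10 arrays for that probe set. A value of 0 is therefore the gene's own average, and neither abundance nor the level of one gene against another can be read from it. The deposited table holds only probe sets with at least a 4-fold range over the arrays, so the 5 genes are present because they varied.

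The sort labels were set against marker genes. All 10 basal and myoepithelial markers, Krt5, Krt14, Acta2 and Trp63 among them, were called higher in the basal arrays at an adjusted p under 0.05 (limma), as were 34.7% of all features, while 4 of 6 general luminal markers, 6 of 7 luminal progenitor markers and 4 of 5 hormone sensing markers were called lower there, as were 41.3% of all features. Itgb3, the other luminal progenitor marker, was called higher in the basal arrays (1.26, adjusted p = 0.00472 in limma). Between the luminal populations, 0 of 7 luminal progenitor and 0 of 5 hormone sensing markers were called, against 0.205% of all features. Their median differences, CD24highCD49fmed minus CD24medCD49f-/low, were 0.26 and -0.07. The names of the luminal populations therefore rest on the sort gates. Among other cell types, 6 of 7 fibroblast, 4 of 6 pericyte and 4 of 4 Schwann cell markers were called higher in basal arrays. So were 4 of 6 epidermal keratinocyte markers. The other fibroblast marker, Col6a3, was called lower (-2.23, adjusted p = 1.09e-05 in limma). Of 2 adipocyte markers 1 was called higher and 1 lower. Endothelial markers were not analysed here, and of the leukocyte markers only Lcp1 was, which was called lower. An array correlated best with its own partner in 3 cases, which were Thy-1-CD24medCD49fhigh replicate 2 and the CD24highCD49fmed pair. The CD24medCD49f-/low arrays correlated at 0.36 with each other. Their best matches were CD24highCD49fmed arrays, at 0.76 for replicate 1 and 0.60 for replicate 2. The median of all 3663 probe sets lay between -0.43 and 0.17 by array, and was lowest in CD24medCD49f-/low replicate 1. The Thy-1+CD24medCD49fhigh arrays correlated at 0.45 with each other. Replicate 2 of that pair had the smallest standard deviation over the probe sets, 0.51, against 0.67 to 1.30 in the other arrays. Its median of the general luminal markers, 0.50, was the highest of the basal arrays.

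Because all 5 genes were higher in basal than in luminal cells, the 150 bases before an annotated start of each gene are shown, from the RefSeq promoters of build GRCm38.p6. Capitals mark TATA elements (TATAAA, its complement TTTATA, or TATATA) and GC boxes (GGGCGG or CCGCCC), both searched on either strand.
Igfbp3 and Igfbp4, the pair with a TATA element, lie at chr11:7213924-7214073 (minus strand) and chr11:99041094-99041243 (plus strand).
Igfbp3: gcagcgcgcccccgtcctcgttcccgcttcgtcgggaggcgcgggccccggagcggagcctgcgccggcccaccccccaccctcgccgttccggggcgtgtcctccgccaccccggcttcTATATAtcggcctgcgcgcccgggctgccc
Igfbp4: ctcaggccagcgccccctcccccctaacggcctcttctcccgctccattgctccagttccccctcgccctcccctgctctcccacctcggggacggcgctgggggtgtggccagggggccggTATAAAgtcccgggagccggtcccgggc
The other 3 hold GC boxes instead, and lie at chr1:72824330-72824479 (plus strand) for Igfbp2, chr5:77408046-77408195 (minus strand) for Igfbp7 and chr7:67952107-67952256 (plus strand) for Igf1r.
Igfbp2: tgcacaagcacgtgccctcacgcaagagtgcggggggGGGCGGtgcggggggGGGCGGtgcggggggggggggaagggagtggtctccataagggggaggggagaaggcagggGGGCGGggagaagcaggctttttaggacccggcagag
Igfbp7: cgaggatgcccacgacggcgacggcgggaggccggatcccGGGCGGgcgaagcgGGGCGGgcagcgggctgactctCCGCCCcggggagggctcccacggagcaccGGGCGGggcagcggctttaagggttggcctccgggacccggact
Igf1r: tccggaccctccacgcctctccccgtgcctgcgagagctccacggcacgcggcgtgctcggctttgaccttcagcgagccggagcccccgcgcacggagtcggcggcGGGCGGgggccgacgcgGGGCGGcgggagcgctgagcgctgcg
The TATA element began 30 bases before the start in Igfbp3 and 28 bases before it in Igfbp4. GC boxes numbered 4 in Igfbp7, 3 in Igfbp2 and 2 in Igf1r, and a second annotated start of Igfbp2 had neither motif. Over all 32851 promoters in the table, 9.48% held a TATA element and 28.6% a GC box in the same window. The 5 windows shown were 72% to 78.7% G and C, against a median of 54% over all promoters. The window of the second Igfbp2 start, which is not shown, was 54% G and C. These matches describe the letters only.

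All 5 genes were higher in the basal arrays than in the luminal arrays. For Igfbp3, Igfbp4 and Igfbp2 the difference was about an order of magnitude, and for Igfbp7 and Igf1r it was smaller. Of all features, 34.7% were called higher in basal cells at an adjusted p under 0.05 (limma, Benjamini-Hochberg over all 2932 features), and 76.0% were called in either direction. For all 5 genes the lowest basal array was above the highest luminal array, which held for 25.2% of all features. In bulk samples such as these, fewer cells of a type and less RNA per cell cannot be told apart.

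**Figure D1:**
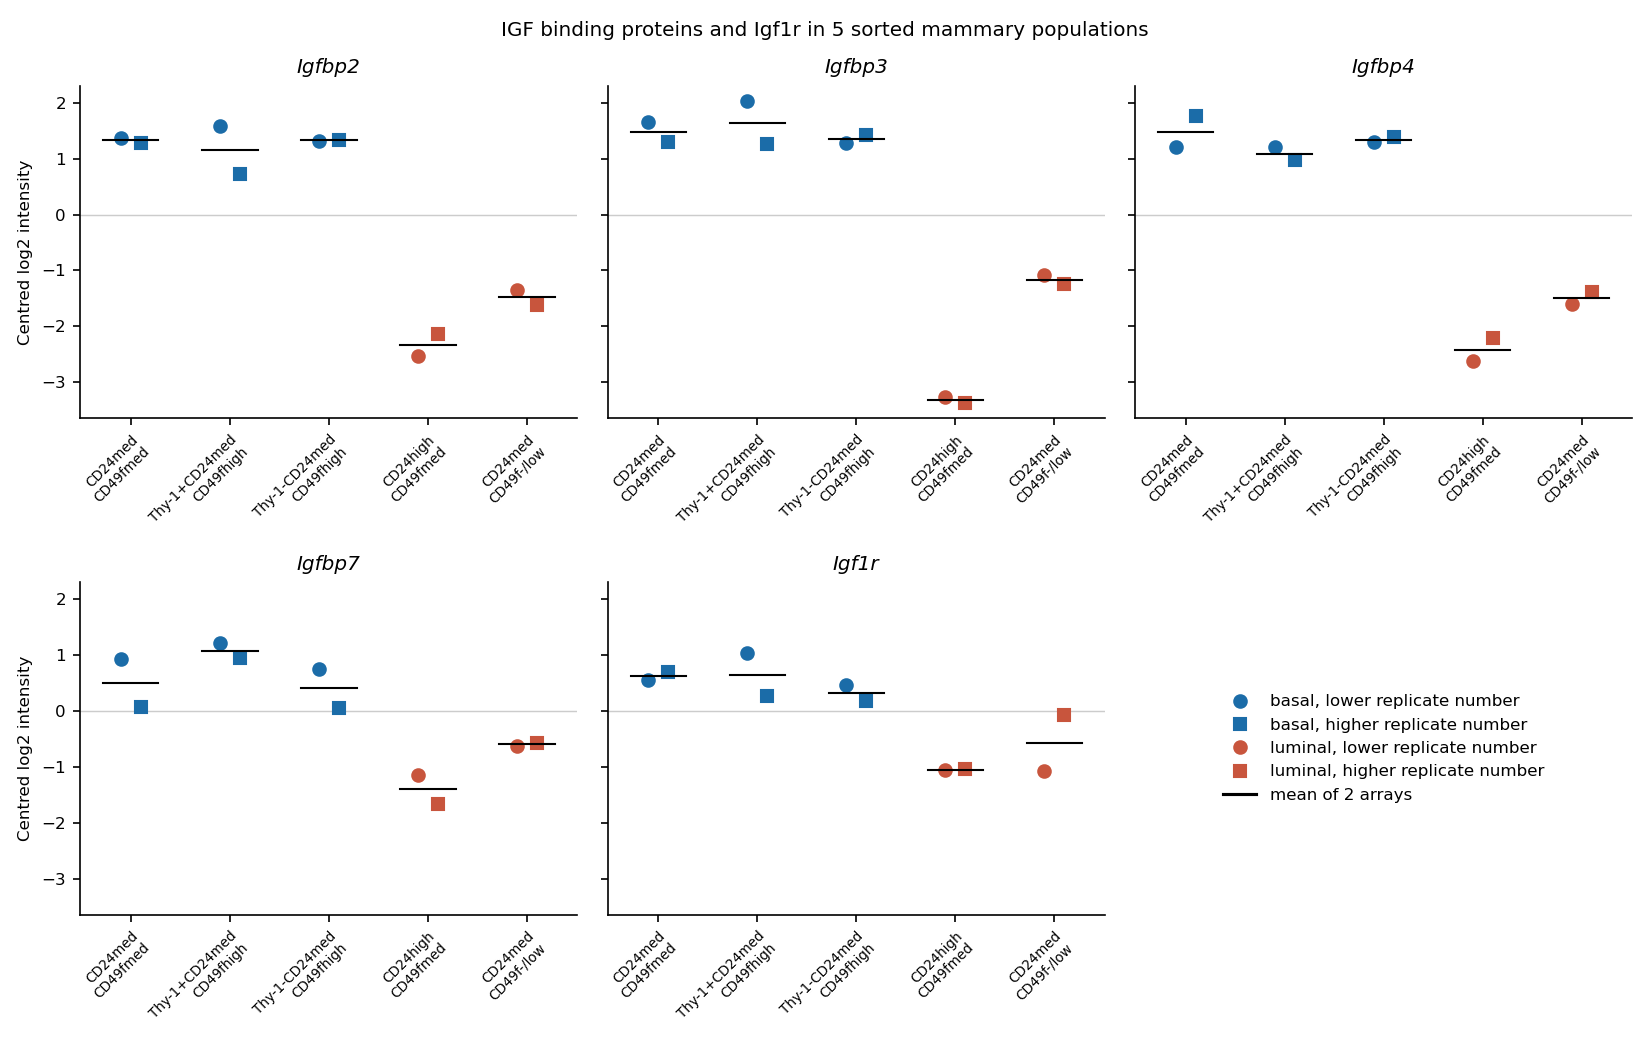
Centred log2 intensity (y axis) of Igfbp2, Igfbp3, Igfbp4, Igfbp7 and Igf1r in each of the 10 arrays, by sorted population (x axis, basal left and luminal right). Points are arrays and bars the mean of 2 arrays. In all 5 panels the 6 basal arrays lie above the 4 luminal arrays, and the mean is lowest in CD24highCD49fmed.

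Igfbp3, the main carrier of IGFs in serum, had the largest difference of the 5. Its centred log2 values were 1.65 and 1.30 in CD24medCD49fmed, 2.03 and 1.26 in Thy-1+CD24medCD49fhigh, and 1.29 and 1.42 in Thy-1-CD24medCD49fhigh cells. In luminal cells they were -3.26 and -3.37 in CD24highCD49fmed and -1.09 and -1.24 in CD24medCD49f-/low. The basal arrays formed 1 block, and the luminal arrays split into a low pair and a very low pair. Basal exceeded luminal cells by 3.73 ± 0.32 (log2 difference ± SE), or 13.3-fold, with an adjusted p of 1.14e-08. Among all features the difference ranked 41 from the top.

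Igfbp4, which in most settings restrains IGF action and is the main substrate of the protease PAPPA, had values of 1.21 and 1.76 in CD24medCD49fmed, 1.20 and 0.98 in Thy-1+CD24medCD49fhigh, and 1.29 and 1.39 in Thy-1-CD24medCD49fhigh cells. The luminal values were -2.62 and -2.22 in CD24highCD49fmed and -1.60 and -1.38 in CD24medCD49f-/low. A gap of 2.36 separated the lowest basal from the highest luminal array, against 2.35 for Igfbp3 and 2.08 for Igfbp2. The difference was 3.26 ± 0.32, or 9.57-fold (adjusted p = 6.27e-08).

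Igfbp2, a binding protein that prefers IGF2 and can attach to integrins through an RGD motif, had values of 1.37 and 1.29 in CD24medCD49fmed, 1.59 and 0.73 in Thy-1+CD24medCD49fhigh, and 1.32 and 1.33 in Thy-1-CD24medCD49fhigh cells. It stood at -2.53 and -2.13 in CD24highCD49fmed and at -1.35 and -1.62 in CD24medCD49f-/low. The Thy-1+ pair spanned the whole basal range, while the Thy-1- pair lay almost on top of each other. The lower Thy-1+ value came from replicate 2, the array with the smallest standard deviation over all probe sets. Basal cells exceeded luminal cells by 3.18 ± 0.33, or 9.05-fold (adjusted p = 1.06e-07).

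Igfbp7 had values of 0.94 and 0.08 in CD24medCD49fmed, 1.22 and 0.95 in Thy-1+CD24medCD49fhigh, and 0.75 and 0.06 in Thy-1-CD24medCD49fhigh cells. Its luminal values were -1.14 and -1.66 in CD24highCD49fmed and -0.62 and -0.57 in CD24medCD49f-/low. Within basal cells it was the most uneven of the 5 genes, with 1 array near 0 in each of CD24medCD49fmed and Thy-1-CD24medCD49fhigh, and the gap to the luminal arrays was 0.63. The difference of 1.67 ± 0.33, or 3.17-fold, had an adjusted p of 2.61e-04.

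Igf1r, the receptor itself, had values of 0.56 and 0.70 in CD24medCD49fmed, 1.04 and 0.27 in Thy-1+CD24medCD49fhigh, and 0.47 and 0.19 in Thy-1-CD24medCD49fhigh cells. The luminal values were -1.06 and -1.04 in CD24highCD49fmed, and -1.06 and -0.06 in CD24medCD49f-/low. The last of these arrays came within 0.25 of the lowest basal array, and its partner matched the CD24highCD49fmed pair. Igf1r was 1.34 ± 0.34 higher in basal cells, or 2.54-fold (adjusted p = 0.00165).

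**Figure D2:**
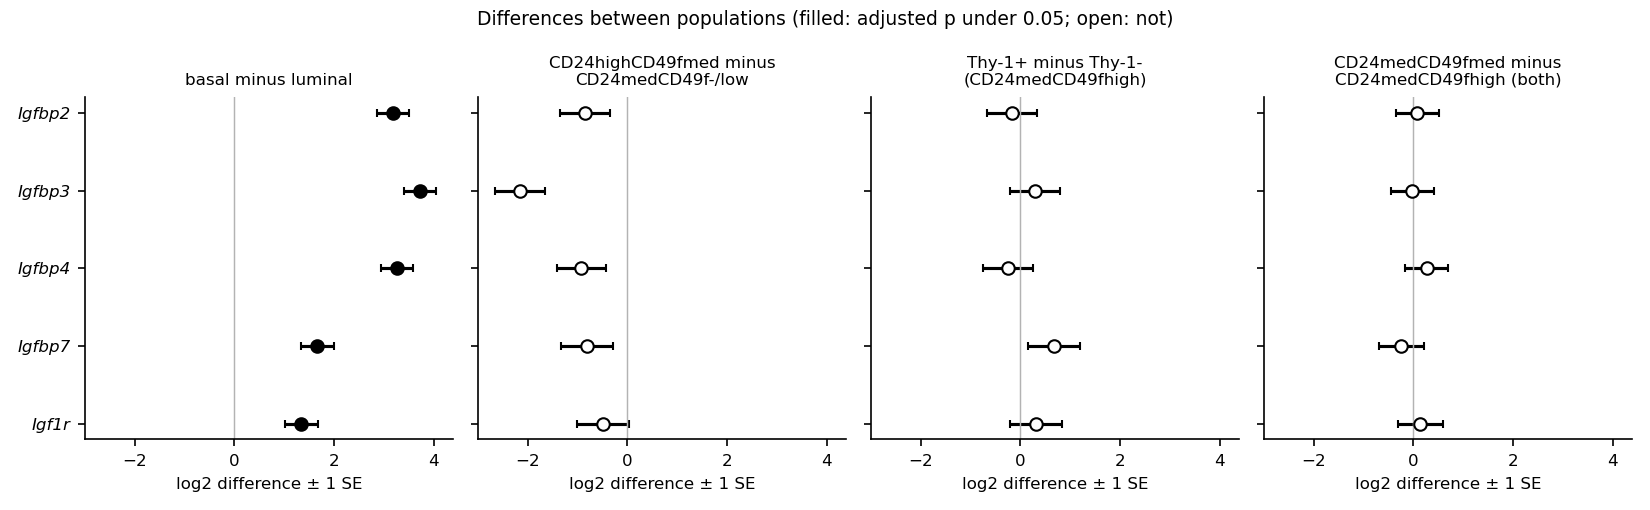
Log2 differences ± 1 SE (x axis) of the 5 genes (y axis) in 4 comparisons, from one limma fit to all 10 arrays. Filled points have an adjusted p under 0.05, which all 5 genes reach for basal minus luminal (1.34 to 3.73) and none reaches in the other 3 comparisons.

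Pair by pair, Igfbp7 and Igf1r were called less widely than the other 3 genes, although for neither did the difference between the luminal populations itself pass the test. Against CD24highCD49fmed, 5 of 5 genes were called higher in CD24medCD49fmed (27.4% of all features), in Thy-1+CD24medCD49fhigh (26.3%) and in Thy-1-CD24medCD49fhigh cells (21.8%). Against CD24medCD49f-/low, 3 of 5 were called higher in CD24medCD49fmed (22.0% of all features), 4 of 5 in Thy-1+CD24medCD49fhigh (18.9%) and 3 of 5 in Thy-1-CD24medCD49fhigh cells (17.4%). Igfbp2, Igfbp3 and Igfbp4 were called in all 6 pairs. Igfbp7 was 1.68 higher in Thy-1+CD24medCD49fhigh than in CD24medCD49f-/low cells (adjusted p = 0.0231), and its other pairs with that population had adjusted p of 0.0954 and 0.139. For Igf1r the 3 pairs with CD24medCD49f-/low had adjusted p of 0.0749, 0.0832 and 0.188. These 6 pairs share arrays and one estimate of the spread.

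Within the luminal cells, all 5 genes had a lower mean in CD24highCD49fmed than in CD24medCD49f-/low. The difference was largest for Igfbp3, at -2.15 ± 0.50 (log2 difference ± SE), or 4.45-fold lower, with a 95% confidence interval of -3.19 to -1.12. Its adjusted p was 0.0781, and it ranked 2925 of 2932 features from the top, that is, among the most strongly lowered. Its unadjusted p was 2.97e-04 (limma), the only one of the 5 genes under 0.05. Of all 2932 features, 451 had an unadjusted p under 0.05 in this comparison. The median centred log2 value of the 10 basal and myoepithelial markers was -2.91 and -2.80 in CD24highCD49fmed, against -1.51 and -1.33 in CD24medCD49f-/low. Their median difference was -1.32, and 0 of 10 were called by limma, against 0.205% of all features. A link between these markers and the 5 genes was not tested.

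None of the 5 genes was called in this comparison by limma, against 0.205% of all features, which is 6 features. The arrays did not overlap for 4 of the 5, all lower in CD24highCD49fmed, which was the case for 14.2% of all features. Igfbp4 differed by -0.92 (interval -1.95 to 0.10), Igfbp2 by -0.85 (interval -1.90 to 0.20) and Igfbp7 by -0.80 (interval -1.88 to 0.27). Igf1r differed by -0.49 (interval -1.57 to 0.60), with overlapping arrays, and by 0.0149 without CD24medCD49f-/low replicate 2. The median of all features in this comparison was 0.35, and it was -0.03 once array medians were set to 0 and 0.00834 after quantile normalisation. The 5 differences ran over -2.53 to -0.86 with array medians set to 0 and over -1.44 to -0.51 after quantile normalisation. For Igfbp3 the adjusted p was 0.0189 with array medians set to 0, and it ranged over 0.0189 to 0.843 among the alternative settings. Leaving out CD24medCD49f-/low replicate 1 gave -2.08 (adjusted p = 0.0274), leaving out its replicate 2 gave -2.23 (adjusted p = 0.0303), and quantile normalisation gave -1.44 (adjusted p = 0.843).

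Within the CD24medCD49fhigh gate, the comparison of Thy-1+ with Thy-1- cells bears on the question the series was made for, namely what Thy-1 separates. Igfbp7 averaged 1.08 in Thy-1+ and 0.41 in Thy-1- cells, a difference of 0.68 with a 95% interval of -0.40 to 1.75, and both Thy-1+ arrays were above both Thy-1- arrays. Igf1r differed by 0.32 (interval -0.76 to 1.40), Igfbp3 by 0.29 (interval -0.74 to 1.33), Igfbp2 by -0.17 (interval -1.22 to 0.88) and Igfbp4 by -0.25 (interval -1.28 to 0.78). For Igfbp4 both Thy-1+ arrays were below both Thy-1- arrays. Igfbp2 became 0.26 without Thy-1+ replicate 2, and Igfbp3 became -0.0925 and Igf1r -0.0622 without Thy-1+ replicate 1. No gene of the 5 was called by limma and none had an unadjusted p under 0.05, against 0.0682% of all features called and 74 features with an unadjusted p under 0.05. Non-overlap of this kind occurred in 17.3% of all features in the higher direction and 5.22% in the lower. With 2 arrays a group, all 5 intervals held both no difference and differences of more than 2-fold.

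Between CD24medCD49fmed and the mean of the CD24medCD49fhigh pair of populations, no difference exceeded 0.27 in size. Igfbp4 differed by 0.27 (95% interval -0.62 to 1.16), Igf1r by 0.14 (interval -0.79 to 1.08), Igfbp2 by 0.08 (interval -0.82 to 0.99), Igfbp3 by -0.02 (interval -0.92 to 0.88) and Igfbp7 by -0.24 (interval -1.17 to 0.70). Each of the 5 changed sign when 1 array was left out. That array was CD24medCD49fmed replicate 3 for Igfbp3, Igfbp4 and Igfbp7, and Thy-1+ replicate 2 for Igfbp2 and Igf1r. Igfbp3 also changed sign with other single arrays left out, such as Thy-1+ replicate 1, which gave 0.17. In this comparison 0 of 5 genes were called by limma and 0 had an unadjusted p under 0.05, against 0.0341% of all features called, which is 1 feature, and 52 with an unadjusted p under 0.05.

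The order of the population means was therefore shared only at its lower end. CD24highCD49fmed was lowest and CD24medCD49f-/low next for all 5 genes. The step between these populations passed the test for none of the 5 (adjusted p of 0.0781 to 0.639 in limma). For Igf1r its direction changed without CD24medCD49f-/low replicate 2. The highest mean was in Thy-1+CD24medCD49fhigh for Igfbp3, Igfbp7 and Igf1r, and in CD24medCD49fmed for Igfbp2 and Igfbp4, and no basal population differed from its neighbour in that order (adjusted p of 0.999 or above in limma). The 3 pairs of basal populations had 0.00%, 0.102% and 0.0682% of all features called, with CD24medCD49fmed against Thy-1+, CD24medCD49fmed against Thy-1- and Thy-1+ against Thy-1- in that order. The step between the lowest basal population and CD24medCD49f-/low passed the test for Igfbp2 (2.64, adjusted p = 0.00101), Igfbp4 (2.58, adjusted p = 0.00104) and Igfbp3 (2.51, adjusted p = 0.00127). It did not pass for Igfbp7 (1.00, adjusted p = 0.139) or Igf1r (0.89, adjusted p = 0.188).

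Tested singly, all 11 probe sets were called higher in basal cells, with differences of 1.33 to 4.79, against 38.7% of all 3663 probe sets called higher. The 5 probe sets of Igfbp4 differed most among themselves, at 4.79 for 1423756_s_at, 3.88 for 1437405_a_at, 3.17 for 1437406_x_at, 2.55 for 1423757_x_at and 1.90 for 1421992_a_at. By Affymetrix convention a name ending in s_at or x_at marks probes that can match more than 1 transcript, and the difference in response between probe sets of a gene cannot be told apart from a difference in probe performance. The pair of Igfbp3 probe sets gave 3.87 and 3.59, and both were lower in CD24highCD49fmed than in CD24medCD49f-/low cells, by -1.96 for 1423062_at (adjusted p = 0.0705) and -2.35 for 1458268_s_at (adjusted p = 0.0458), where 0.218% of all probe sets were called lower.

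For Igf1r the probe sets gave like differences between basal and luminal cells, 1.36 for 1428967_at and 1.33 for 1452108_at, on which 1 basal and 1 luminal array overlapped. The luminal arrays ran in different orders on the 2. On 1428967_at the values were -0.72 and -0.90 in CD24highCD49fmed, against -1.46 and -0.19 in CD24medCD49f-/low. On 1452108_at they were -1.40 and -1.19 in CD24highCD49fmed, against -0.67 and 0.06 in CD24medCD49f-/low. So the luminal comparison of Igf1r was 0.02 by the first and -0.99 by the second, and the direction of the gene's average there rests on 1 probe set.

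**Figure D3:**
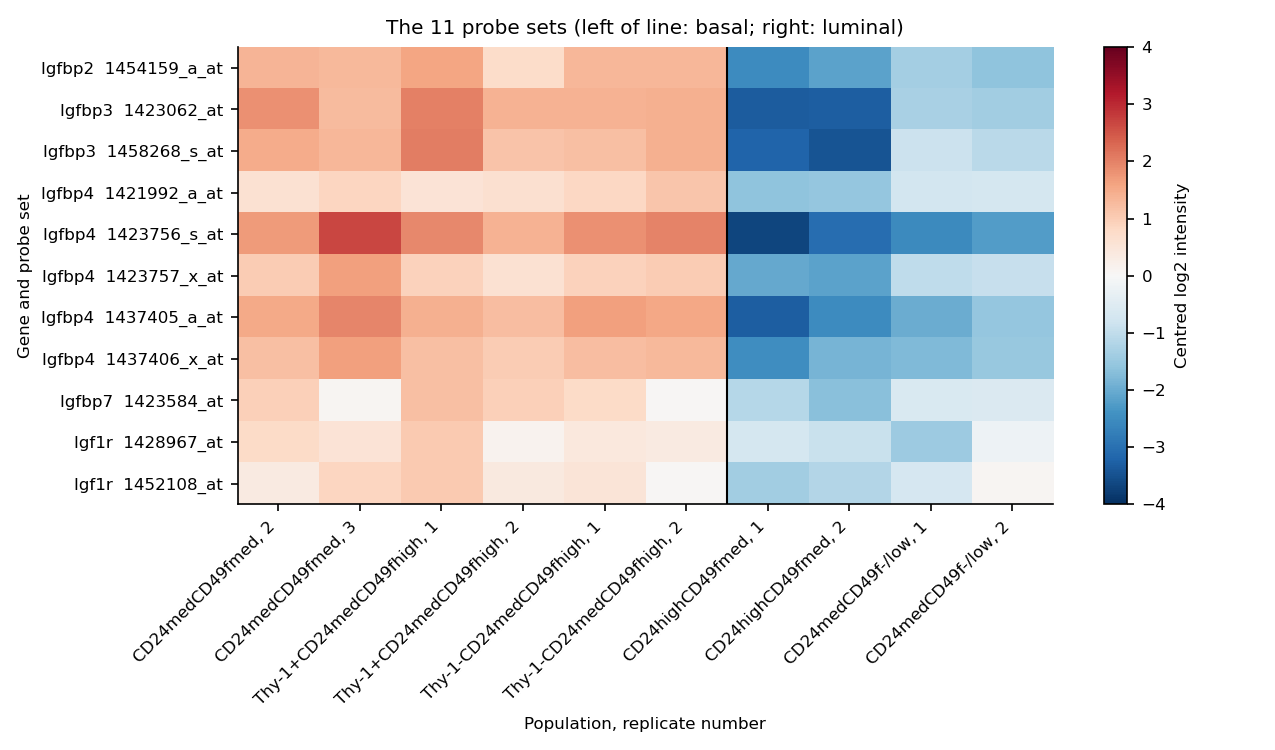
Centred log2 intensity (colour) of the 11 probe sets (rows, with gene names) in the 10 arrays (columns, population and replicate number), with a line between basal (left) and luminal (right) arrays. Every row has the higher mean on the left, arrays of both sides overlap in 1452108_at of Igf1r alone, and 1423756_s_at of Igfbp4 has the widest contrast.

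Of the other genes in the IGF pathway, 16 were in the table, and their directions were mixed. Between basal and luminal cells 7 were called higher, 5 lower and 4 were not called, with a median difference of 0.74 against -0.11 over all features. The 12 called are close to the share of all features called in either direction, 76.0%, and the list was chosen with earlier results of these data known. Ligands (Igf1, Igf2, Ins1 and Ins2) were not analysed here.

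Of the binding protein proteases, 4 of 5 were called higher in basal cells, against 34.7% of all features. Mmp2, a matrix metalloproteinase, was 4.01 ± 0.34 higher, with basal values of 1.10 to 2.37 and luminal values of -2.73 to -2.24. Adamts1, a secreted metalloproteinase, was 3.29 ± 0.31 higher and Htra1, a secreted serine protease, 2.87 ± 0.33 higher. Pappa, the protease of Igfbp4, was 2.18 ± 0.33 higher (adjusted p = 1.42e-05). Stc2, a stanniocalcin that blocks PAPPA, differed by -2.42 ± 0.42 and was lower in basal cells (adjusted p = 5.33e-05). Ctsd, a lysosomal protease, was 0.39 higher and was not called (adjusted p = 0.371).

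Among relatives of the binding proteins, Ccn2 (connective tissue growth factor) was 3.17 ± 0.34 higher in basal cells and Ccn1 was 0.95 higher. Esm1, a secreted proteoglycan with a domain like that of the binding proteins, differed by -3.01 ± 0.32 and was lower in basal cells. On the signalling side, the adaptors Grb10 and Grb14, which restrain the insulin and IGF receptors, differed by -1.13 (adjusted p = 0.0121) and -0.75 (adjusted p = 0.0479), both with overlapping arrays. Jak2, a kinase of the growth hormone and prolactin receptors, differed by -1.70 and Phlda3, a repressor of AKT, by 2.10. Not called were Insr, the insulin receptor, at 0.69 (adjusted p = 0.115), Pik3r1 at 0.80 (adjusted p = 0.0502) and Stat5a at -0.45 (adjusted p = 0.284). Pappa, Phlda3, Ccn1, Grb10, Grb14, Ctsd, Pik3r1 and Stat5a fell outside the naming rule and were named after their values were seen. In the other 3 comparisons 0 of the 16 genes were called by limma. Of all features, 0.205% were called within the luminal cells, 0.0682% between Thy-1+ and Thy-1- cells and 0.0341% in the remaining comparison. Only 2 of the 16 had an unadjusted p under 0.05, both within the luminal cells, where 451 of all 2932 features did. The 2 were Adamts1 and Esm1. Adamts1 stood at -2.64 and -2.53 in CD24highCD49fmed against -1.39 and -1.33 in CD24medCD49f-/low. Esm1 stood at 2.66 and 2.25 in CD24highCD49fmed against 0.79 and 1.54 in CD24medCD49f-/low. Neither passed the test after adjustment (adjusted p = 0.244 for both).

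**Figure D4:**
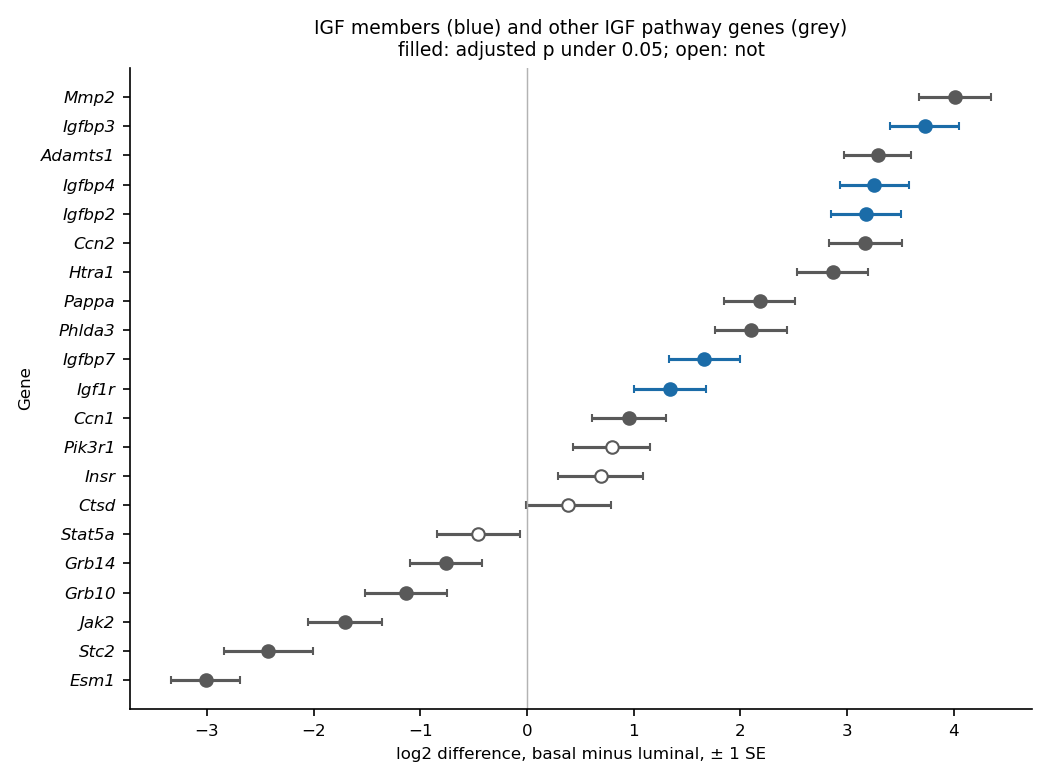
Log2 difference ± 1 SE between basal and luminal cells (x axis) for the 5 IGF genes (blue) and the 16 other pathway genes (grey), in order of size (y axis). Filled points have an adjusted p under 0.05. Mmp2 at 4.01 and Igfbp3 at 3.73 are at the top and Esm1 at -3.01 at the bottom.

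The genes most like each member over the 10 arrays were listed from the 2555 other named genes by Pearson's r, as a description. All 10 points share the same arrays and the same basal and luminal split, so many genes correlate this closely. For Igfbp3 they were Sparc (0.994), a matrix glycoprotein, Id4 (0.993), an inhibitor of DNA binding, and Ism1 (0.993). For Igfbp4 they were Col4a1 (0.995), a basement membrane collagen, Reln (0.995), a secreted glycoprotein, and Fscn1 (0.993), an actin bundler. For Igfbp2 they were Apobec1 (0.998), an RNA editing enzyme, Niban1 (0.997) and Trp63 (0.996), the transcription factor of basal epithelia. The nearest to Igf1r were Kcnip3 (0.985), Clstn1 (0.984) and Phlda3 (0.984). Those of Igfbp7 lay further off, with Vgll3 at 0.982, Aoc3 at 0.968 and Hgf, hepatocyte growth factor, at 0.966. Genes with r over 0.9 numbered 130 for Igfbp7, against 319 to 396 for the other 4.

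Markers of other cell types were set beside the members. The study's methods also list an antibody to CD140α, which marks fibroblasts, among the sorting reagents, while the labels of these arrays do not name it. The median centred log2 value of 6 pericyte markers, Rgs5, Pdgfrb and Cspg4 among them, was 0.37 and 0.09 in CD24medCD49fmed, 0.97 and 1.10 in Thy-1+CD24medCD49fhigh and -0.00348 and -0.18 in Thy-1-CD24medCD49fhigh cells. In luminal cells it was -0.52 and -0.97 in CD24highCD49fmed and -0.20 and -0.51 in CD24medCD49f-/low. Igfbp7 had its highest pair of arrays in Thy-1+ cells too, at 1.22 and 0.95, with CD24medCD49fmed replicate 2 next at 0.94. Its difference between Thy-1+ and Thy-1- cells was not called (adjusted p = 0.999 in limma). The median of the 7 fibroblast markers was 1.53 and 1.10 in Thy-1+, -0.23 and -0.15 in Thy-1- and 0.80 and 0.67 in CD24medCD49fmed cells. This median was likewise below 0 in all 4 luminal arrays, at -1.17 and -1.30 in CD24highCD49fmed and -0.90 and -0.57 in CD24medCD49f-/low. Mmp2 is in both the fibroblast list and the pathway list. Thy-1+ replicate 1, the array in which Igfbp2, Igfbp3, Igfbp7 and Igf1r were at their highest, also had the highest median of the basal and myoepithelial (2.02), epidermal keratinocyte (2.15) and fibroblast (1.53) markers. Values of 0 are averages here, so no marker can be read as absent, and the part of these cells in the members' differences was not tested.

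**Figure D5:**
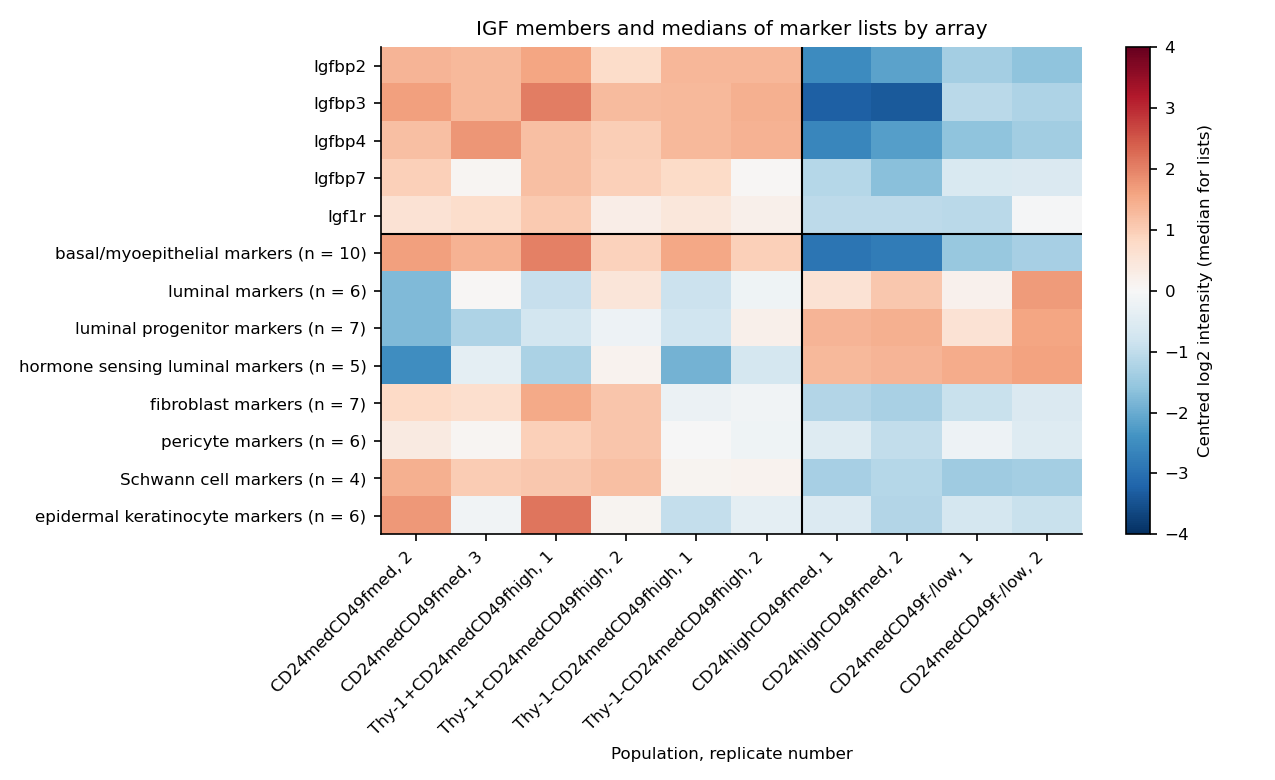
Centred log2 intensity (colour) of the 5 IGF genes (upper rows) and the median over each marker list (lower rows, with the number of genes) in the 10 arrays (columns), with a line between basal (left) and luminal (right) arrays. Pericyte and fibroblast medians are highest in the Thy-1+ arrays, at 0.97 to 1.53.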

How the data were processed

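RNA from 10 sorted samples had been hybridised to Affymetrix mouse arrays after amplification. The deposited values are log2 intensities that the authors normalised by RMA (the submitters' notes also name GCRMA, with no version), filtered on level and on a 4-fold range, and mean centred per probe set. The study's text writes CD24lowCD49fmed where the labels have CD24medCD49fmed. Of 3663 probe sets 3291 had 1 gene symbol, 75 several and 297 none in the platform annotation. Probe sets of 1 gene were averaged, and those with several or no symbols were kept singly, which gave 2932 features, of which 2560 were named genes. Differences were tested with limma 3.58.1 (R 4.3.3), with one mean per population over all 10 arrays, two-sided, on 5 residual degrees of freedom and a prior of 16.5. Adjustment was by Benjamini-Hochberg over all features, and calls needed an adjusted p under 0.05. The study's rank products were not run, since that test resamples over probe sets. Basal minus luminal weights populations equally.

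Members and lists were chosen with earlier results of these data known. All members were named. Of the pathway list, up to 4 genes in each direction were named that were called and whose arrays did not overlap. Every ligand and receptor present was to be named too, and the 3 genes nearest to each member by r were named. Array scaling, moderation, a replicate block, a minimum log2 difference of 1, single probe sets, the arrays compared alone and leaving out each array were tried as alternatives. The script was tested on simulated data. The small number of arrays limits the precision.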

Additional observations from a re-analysis of the deposited data

How the results depend on the processing

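Between basal and luminal cells 5 of 5 IGF genes were called under all 16 alternatives, and 10 to 15 pathway genes, against 12. Of 335 recomputed differences 316 kept their direction and side of the threshold, 4 gained a call (all Igfbp3, CD24highCD49fmed against CD24medCD49f-/low) and 15 that were not called changed sign. The causes were not tested.

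In the CD24highCD49fmed comparison, the IGF genes called numbered 1 in place of 0 with array medians set to 0 and with a replicate block, in which Igfbp3 had an adjusted p of 0.0345, and 0 to 1 with 1 array left out, where pathway genes called ran over 0 to 2. The features called there, 6 in all, became 15 with medians set to 0, 0 by quantile normalisation, 0 with only the arrays compared, 33 with the replicate block and 0 to 295 with 1 array left out (295 without CD24medCD49f-/low replicate 1, 118 without its replicate 2). Against the 2 features called between Thy-1+ and Thy-1- cells and the 1 between CD24medCD49fmed and the CD24medCD49fhigh pair, the replicate block gave 9 and 19, the arrays compared alone 13 and 1, and leaving out 1 array 0 to 11 and 0 to 1.

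The differences that changed sign were 0.49 or less in size and none was called. For CD24medCD49fmed against the CD24medCD49fhigh pair, quantile normalisation turned Igfbp2 to -0.0796, and the replicate block turned Igfbp3 to 0.26, Igfbp4 to -0.0683 and Igfbp7 to 0.37. With 1 array left out, the ranges there were -0.13 to 0.30 for Igfbp2, -0.22 to 0.17 for Igfbp3, -0.00667 to 0.54 for Igfbp4, -0.67 to 0.19 for Igfbp7 and -0.0489 to 0.34 for Igf1r. For Thy-1+ against Thy-1- cells they were -0.60 to 0.26 for Igfbp2, -0.0925 to 0.68 for Igfbp3 and -0.0622 to 0.71 for Igf1r. For CD24highCD49fmed against CD24medCD49f-/low, Igf1r ranged over -0.99 to 0.0149 and was above 0 without CD24medCD49f-/low replicate 2.

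The labels do not say that a replicate number pairs samples, and the deviations of the arrays numbered 2 correlated at 0.52 between the luminal populations, at 0.30 between Thy-1+ and Thy-1- cells and at -0.51 to 0.0776 in the other pairs of populations. Pairing was therefore not established, and the values with the replicate block are given as an alternative only. Because CD24medCD49fmed carries numbers 2 and 3, its part in the replicate block rests on replicate 2. An array whose partner was left out was assumed to vary like the other groups. Levels below background cannot be seen in centred values.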
